A study of Saccharomyces cerevisiae with 4 samples.

Results

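The genes of yeast telomerase and of the proteins that cap the chromosome end were examined in cells that lack both Esl1 and Esl2. The 10 genes were *EST2*, *EST3*, *CDC13*, *STN1*, *TEN1*, *YKU70*, *YKU80*, *RAP1*, *RIF1* and *RIF2*. They were found by their gene or ORF names on the array, among the 6254 genes that gave a ratio in every replicate, and were chosen with earlier results of these data known. None of the 10 passed the test for a difference between *esl1Δ esl2Δ* and wild-type cells over 3 replicates. The mean log2 ratio of *esl1Δ esl2Δ* over wild-type lay between −0.17 (*EST2*) and 0.22 (*TEN1*), that is between 0.889-fold and 1.16-fold.

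Telomerase extends chromosome ends with a reverse transcriptase, Est2, that copies the *TLC1* RNA with the help of the accessory proteins Est1 and Est3. The single-stranded end is bound by the Cdc13-Stn1-Ten1 complex, the junction with the duplex by the Ku heterodimer of Yku70 and Yku80, and the duplex repeats by Rap1, which brings in Rif1 and Rif2 and thereby limits elongation. In budding yeast, several of these mRNAs, among them those of *EST2*, *EST3*, *STN1* and *TEN1*, are known to accumulate when nonsense-mediated decay (NMD), the pathway that degrades mRNAs with premature stop codons, is lost. Esl1 and Esl2 are relatives of Est1 and of the human proteins SMG5 and SMG6, which act in NMD and have been linked to telomeres, so the levels of these transcripts bear on the question which functions the yeast proteins share. By other assays of these mutants, the authors found no apparent role of either protein in telomere maintenance or NMD.

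RNA of *esl1Δ esl2Δ* cells was set against that of wild-type cells on Agilent yeast arrays that read out both strains on the same spots, each RNA in its own dye. Both strains were *MATa* and of the W303-1A background (Y52), and shared *RAD5* and the marker alleles *ura3-1*, *trp1-1*, *can1-100*, *ade2-1* and *leu2-3, 122*. The mutant also carried *esl1Δ::KAN* and *esl2Δ::NAT*, that is, drug-resistance cassettes in place of both genes. Cells had been harvested in log phase from YPD with 2% glucose at 30°, there were 3 biological replicates of each strain, and whether these came from several clones of the mutant is not given in the sources used here. The mutant RNA was in Cy5 and the wild-type RNA in Cy3 on the arrays of all 3 replicates, and the RNA of replicate 3 was hybridized once more with the dyes exchanged, so that dye and strain cannot be told apart in replicates 1 and 2.

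The median spot intensity was between 1660 and 5186 per array and channel over a local background of 22 to 49.5, with 92.4% to 98.0% of the spots of genes clearly brighter than background. The labels were checked on the deleted genes, for which the log2 ratio was −4.50 ± 0.23 for *ESL1* and −3.76 ± 0.20 for *ESL2* (SD, n = 3; adjusted p = 0.00105 each, limma). Over all genes, which do not count as independent replicates, the ratios of replicate 1 correlated with those of replicate 2 at 0.681, whereas replicate 3 correlated with replicate 1 at 0.101 and with replicate 2 at 0.214. By this measure, replicate 3 stood apart. However, replicates 1 and 2 shared 1 dye orientation, whereas replicate 3 averaged both. The part of the dyes in these correlations was not tested.

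All 10 genes gave signal on every array. Each had 1 probe with 2 or 3 spots, and 192 of 192 spot readings over both channels and 4 arrays were well above background. The intensity over the local background was lowest for the *RIF2* probe, at 3.29 to 6.77 in *esl1Δ esl2Δ* and 3.51 to 10.3 in wild-type cells. It was highest for the *RAP1* probe, at 138 to 190 in *esl1Δ esl2Δ* and 91.8 to 258 in wild-type cells. These values serve to show that each probe had signal, not to compare genes, since probes differ in brightness, nor strains, since the red channel had the higher background. The SD of a gene's log2 ratio between the spots of an array had a median of 0.0422 and was at most 0.118, so the spread between replicates, and not that between spots, set the precision.

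**Figure D1:**
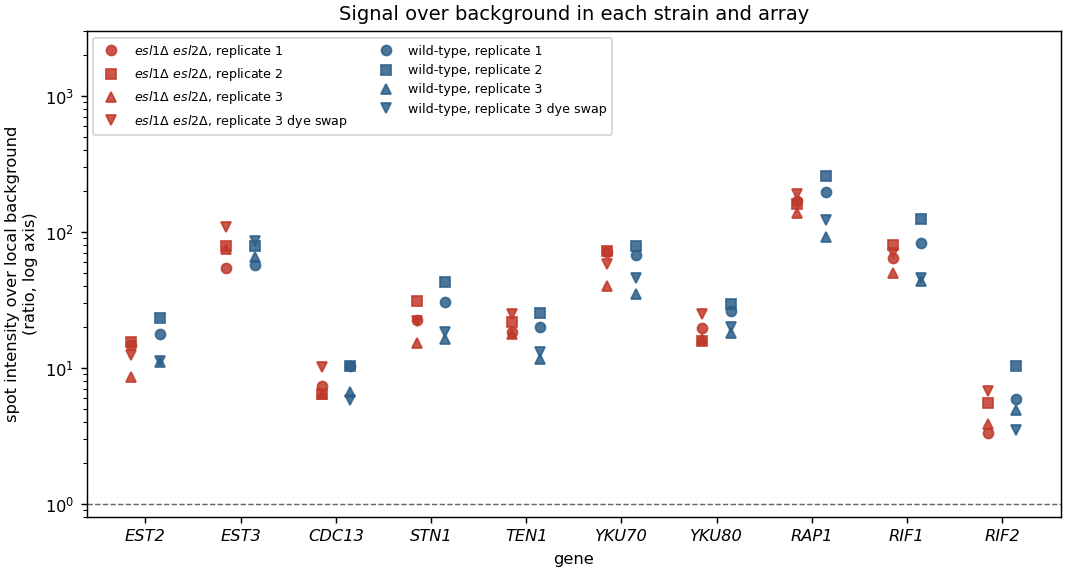
Spot intensity divided by the local background (log axis) of the probes of the 10 genes, in *esl1Δ esl2Δ* (red) and wild-type cells (blue), with 1 symbol per array. All points lie above the dashed line at 1, where intensity equals background, from 3.29 for *RIF2* to 258 for *RAP1*.

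Of the telomerase proteins, Est2 is the catalytic subunit. The *EST2* probe (YLR318W, chromosome XII) gave intensities of 678, 790, 410 and 274 in *esl1Δ esl2Δ* cells, against 460.5, 619, 260 and 526 in wild-type cells, on the arrays of replicates 1, 2 and 3 and the dye swap, before normalization. After normalization, the log2 ratio of *EST2* was −0.11 in replicate 1, −0.07 in replicate 2 and −0.34 in replicate 3. All replicates were thus on the side of the wild-type, but the mean of −0.17 ± 0.14 (SD, n = 3) did not pass the test (adjusted p = 0.552, limma, Benjamini-Hochberg over all genes), with a 95% interval of 0.733-fold to 1.08-fold. The signal of *EST2* over the local background was 8.55 to 15.5 in *esl1Δ esl2Δ* and 10.98 to 23.3 in wild-type cells. With 1 replicate left out, the mean of *EST2* lay between −0.22 (without replicate 2) and −0.09 (without replicate 3). Est3, a small subunit of the telomerase holoenzyme, is translated through a programmed ribosomal frameshift, and its gene (YIL009C-A, chromosome IX) is 547 bp long in the RefSeq table (assembly R64), which is not a multiple of the codon length. For *EST3*, the log2 ratio was 0.01, 0.26 and −0.01 in the 3 replicates, with a mean of 0.09 ± 0.15 (adjusted p = 0.762; 95% interval 0.875-fold to 1.29-fold). Replicate 2 alone was higher in the mutant by more than a few hundredths, and both arrays of replicate 3 were close to 0, at −0.03 and, with the dyes exchanged and the sign turned, 0.01. Its signal over background was 54.3 to 108 in *esl1Δ esl2Δ* and 57.4 to 85.6 in wild-type cells.

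In the complex of the single-stranded overhang, Cdc13 binds the DNA and recruits telomerase, and Stn1 and Ten1 hold the end with it and promote fill-in of the opposite strand. The log2 ratio of *CDC13* (YDL220C, chromosome IV) was 0.0031, −0.13 and 0.20 in the 3 replicates. Its mean of 0.02 ± 0.16 was the closest to 0 of the 10 genes (adjusted p = 0.944; 95% interval 0.834-fold to 1.24-fold), and its sign turned under other processing. The mRNA of *STN1* (YDR082W, chromosome IV), an NMD-sensitive transcript, had log2 ratios of −0.26, 0.04 and −0.23 and a mean of −0.15 ± 0.16 (adjusted p = 0.612; 95% interval 0.738-fold to 1.099-fold). The *STN1* probe had intensities of 1138, 1503.5, 743 and 471 in *esl1Δ esl2Δ* cells, against 835, 1048, 401 and 875 in wild-type cells, on the arrays of replicates 1, 2 and 3 and the dye swap. These values are from before normalization. The red channel was the brighter one for *STN1* on all 4 arrays, whichever strain it held, as it was in the median over all genes. Over the local background, the signal of *STN1* was 15.2 to 30.9 in *esl1Δ esl2Δ* and 16.3 to 42.8 in wild-type cells, and that of *CDC13* was 6.42 to 10.09 in *esl1Δ esl2Δ* and 5.82 to 10.3 in wild-type cells.

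*TEN1* (YLR010C, chromosome XII), the gene of the smallest subunit of this complex, had the highest mean of the 10 genes and was the only one above wild-type in all 3 replicates. Its probe gave intensities of 853, 1082.5, 765 and 468.5 in *esl1Δ esl2Δ* cells, against 509, 647.5, 282 and 614 in wild-type cells, on the arrays of replicates 1, 2 and 3 and the dye swap. These are values before normalization, with the red channel the brighter one on each array. The log2 ratio of *TEN1* was 0.07 in replicate 1, 0.28 in replicate 2 and 0.31 in replicate 3, the last from 0.37 on the array and 0.25 on the dye swap. The mean of 0.22 ± 0.13 (SD, n = 3), or 1.16-fold, did not pass the test, with the smallest adjusted p of the 10 genes (adjusted p = 0.458, limma), and its 95% interval was 0.963-fold to 1.41-fold. This mean was at the 84.0th percentile of all genes. The signal of *TEN1* over background was 17.6 to 25.0 in *esl1Δ esl2Δ* and 11.5 to 25.4 in wild-type cells. Over the 4 arrays, the profiles nearest to that of *TEN1* by Euclidean distance were those of *HXT8*, a member of the hexose transporter family, *YGK1* and *TIM22*, which encodes a channel for import into the mitochondrial inner membrane, at distances of 0.0717, 0.0787 and 0.0797 log2 units. The SD between the spots of *TEN1* on an array was of like size, at 0.0363 to 0.107. Which genes are nearest is therefore uncertain, and shared regulation was not tested.

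The Ku heterodimer binds duplex ends, protects them from resection and, through the *TLC1* RNA, helps telomerase to the telomere. Its subunits had means on opposite sides of 0. The log2 ratio of *YKU70* (YMR284W, chromosome XIII) was 0.22 and 0.42 in replicates 1 and 2 but −0.11 in replicate 3, with a mean of 0.18 ± 0.27 (adjusted p = 0.624; 95% interval 0.889-fold to 1.44-fold). The mean of *YKU70* was 0.32 without replicate 3 (adjusted p = 0.116, limma), 0.0526 without replicate 2 and 0.0213 when the 4 arrays were fitted with a dye term (adjusted p = 0.955). *YKU80* (YMR106C, chromosome XIII) had log2 ratios of −0.02, −0.24 and −0.22 and the smallest spread of the 10 genes, with a mean of −0.16 ± 0.12 (adjusted p = 0.562; 95% interval 0.743-fold to 1.08-fold). The difference between both subunits was not tested. On the dye swap of replicate 3, both genes were below 0, at −0.14 for *YKU70* and −0.19 for *YKU80*, as they were on the first array of that replicate, at −0.08 and −0.25. Over background, *YKU70* had a signal of 39.8 to 72.7 in *esl1Δ esl2Δ* and 34.6 to 78.5 in wild-type cells, and *YKU80* one of 15.7 to 24.7 in *esl1Δ esl2Δ* and 18.2 to 29.5 in wild-type cells.

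Rap1 binds the telomeric repeats and is also a transcription factor of many promoters, among them those of ribosomal protein genes, and Rif1 and Rif2 join it as inhibitors of telomerase. The 3 genes shared 1 pattern, with ratios below 0 in replicates 1 and 2 and above 0 in replicate 3. For *RAP1* (YNL216W, chromosome XIV), the log2 ratio was −0.14, −0.42 and 0.30, with the widest spread of the 10 genes and a mean of −0.09 ± 0.36 (adjusted p = 0.838; 95% interval 0.710-fold to 1.25-fold). *RIF1* (YBR275C, chromosome II), the longest of the 10 genes at 5751 bp in R64, had log2 ratios of −0.29, −0.35 and 0.15 and a mean of −0.16 ± 0.27 (adjusted p = 0.662; 95% interval 0.703-fold to 1.14-fold). For *RIF2* (YLR453C, chromosome XII), they were −0.03, −0.37 and 0.13, with a mean of −0.09 ± 0.25 (adjusted p = 0.805; 95% interval 0.745-fold to 1.19-fold). The sign of *RIF2* in replicate 1 is uncertain, since the SD between spots was 0.107 there and the mutant signal was 3.29 over background. The means of all 3 were above 0 when the 4 arrays were fitted with a dye term, a fit in which the arrays of replicate 3 carry 66.7% of the weight. The signal of *RIF1* over background was 49.6 to 80.5 in *esl1Δ esl2Δ* and 43.1 to 125 in wild-type cells. In replicate 3, the array and the dye swap gave the same sign for each of these genes, at 0.19 and 0.41 for *RAP1*, 0.06 and 0.24 for *RIF1*, and 0.08 and 0.18 for *RIF2*. Of all genes, 18.9% had signs of this kind, below 0 in replicates 1 and 2 and above it in replicate 3. Without replicate 3, the means were −0.28 for *RAP1* (adjusted p = 0.167), −0.32 for *RIF1* (adjusted p = 0.101) and −0.20 for *RIF2* (adjusted p = 0.331, limma), at a setting where 10.6% of all genes were called. Without replicate 2, they were 0.0772 for *RAP1*, −0.0655 for *RIF1* and 0.0515 for *RIF2*.

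**Figure D2:**
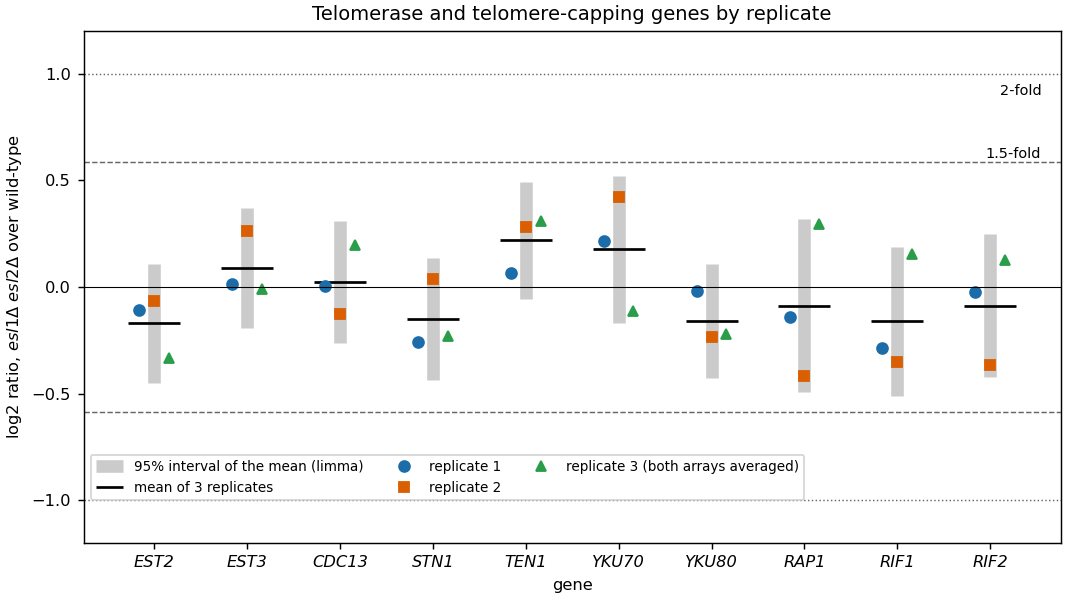
Log2 ratio of *esl1Δ esl2Δ* over wild-type for each gene, with 1 symbol per replicate (both arrays of replicate 3 averaged), the mean as a black line and its 95% interval from limma in gray. Dashed and dotted lines mark 1.5-fold and 2-fold, and all 10 intervals hold 0 and end inside the 1.5-fold lines.

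Counted together, 0 of the 10 genes passed the test (adjusted p below 0.05, limma), against 7 of 6254 genes or 0.112%, and 0 had an unadjusted p below 0.05, against 832 genes or 13.3%. A count of 0 among 10 genes is near both of these shares. None was past 2-fold in the mean (0.799% of all genes), and none was past 1.5-fold above wild-type (2.45% of all genes) or below it (1.31% of all genes). By sign, 1 gene, *TEN1*, was higher in *esl1Δ esl2Δ* in all 3 replicates, against 18.7% of all genes, and 2 genes, *EST2* and *YKU80*, were lower in all 3, against 18.5% of all genes. The mean was higher in the mutant for 4 genes and lower for 6, and its median over the 10 was −0.09, against −0.0047 over all genes. An exact sign-flip test over 3 replicates cannot go below 0.25, the value it gave for *EST2*, *TEN1* and *YKU80*.

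The 4 genes known as NMD-sensitive in yeast did not share a direction. Their median log2 ratio was −0.05 in replicate 1, 0.15 in replicate 2 and −0.12 in replicate 3. *TEN1* and *EST3* had means above 0, and *EST2* and *STN1* had means below it. The upper ends of their 95% intervals were 1.08-fold for *EST2*, 1.099-fold for *STN1*, 1.29-fold for *EST3* and 1.41-fold for *TEN1*, each taken for 1 gene at a time.

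How small a change these arrays could show differed between the genes. The median SD over replicates was 0.162 for the 10 genes, from 0.120 for *YKU80* to 0.360 for *RAP1*, against 0.204 over all genes. The limma intervals draw on the spread of all genes and end between 0.703-fold and 1.44-fold. Intervals from each gene's own SD, which were chosen after seeing the data, are wider. They stayed within 1.5-fold either way for 6 of the 10 genes and within 2-fold for all 10. The exceptions at 1.5-fold were *YKU70* (0.710-fold to 1.80-fold), *RAP1* (0.506-fold to 1.75-fold), *RIF1* (0.558-fold to 1.44-fold) and *RIF2* (0.608-fold to 1.46-fold), in each of which replicate 3 had the opposite sign of replicates 1 and 2. Both arrays of replicate 3 differed by a median of 0.0621 log2 units over the 10 genes and by at most 0.220 (*RAP1*), against a median of 0.149 over all genes, and 9 of the 10 genes had the same sign on both, against 76.2% of all genes.

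**Figure D3:**
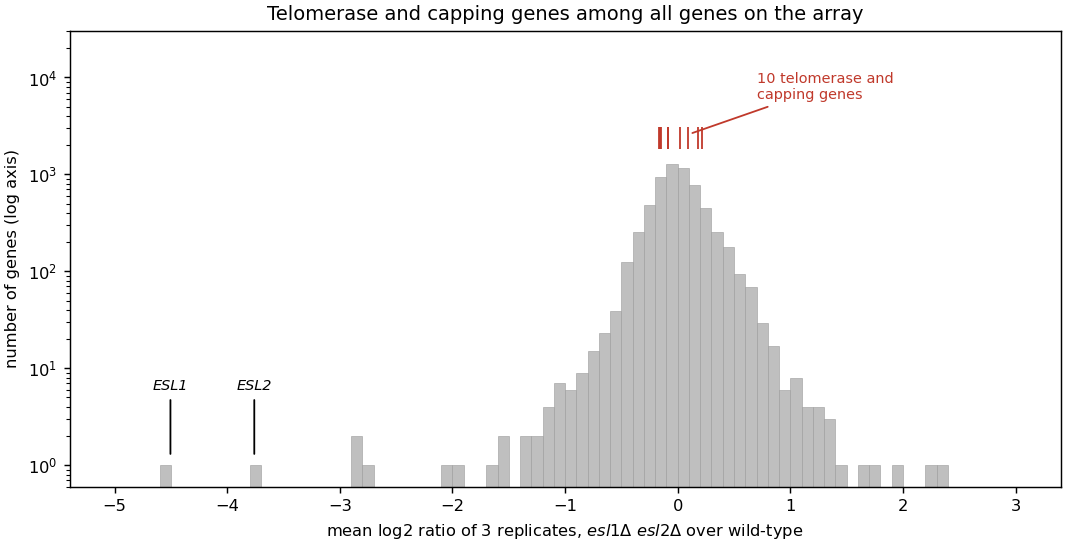
Histogram of the mean log2 ratio of *esl1Δ esl2Δ* over wild-type for 6254 genes (number of genes on a log axis), with the 10 telomerase and capping genes as red marks and the deleted *ESL1* and *ESL2* named. The red marks lie between −0.17 and 0.22, inside the bulk of the distribution.

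Other genes of the pathway were taken from 8 lists of telomere, silencing and decay genes, of which 56 of 57 were measured. *TLC1*, the telomerase RNA, had no probe under its name. Of the 56 genes, 0 passed the test in either direction, against 0.112% of all genes, and the median log2 ratio was −0.07. An unadjusted p below 0.05 was found for 1 gene above wild-type and 1 below it, or 1.79% of the 56 each, against 7.91% and 5.39% of all genes. *EST1*, which encodes the regulatory subunit that bridges telomerase and Cdc13, had log2 ratios of 0.01, −0.06 and 0.33 and a mean of 0.09 ± 0.21 (adjusted p = 0.771). The gene above wild-type with an unadjusted p below 0.05 was *RFA3*, the small subunit of replication protein A, with log2 ratios of 0.27, 0.38 and 0.31 and a mean of 0.32 ± 0.06 (adjusted p = 0.294, limma). It was named after its values were seen, and it was higher in 3 of 3 replicates. The list medians were 0.04 for the partners of telomerase, −0.10 for the Mre11 complex and checkpoint kinases, −0.09 for the SIR silencing genes, 0.05 for lagging-strand synthesis at telomeres and −0.04 for other factors of telomere length and subtelomeres. For the Y′ helicases, genes in subtelomeric repeats whose near-identical copies may share a probe's signal, the median was −0.07.

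The factors of NMD itself and *EBS1*, a further relative of *EST1*, also had means near 0, but from replicates of opposite sign. The mean log2 ratio was −0.11 ± 0.39 for *NAM7*, which encodes the helicase Upf1, −0.07 ± 0.26 for *NMD2* and −0.08 ± 0.14 for *UPF3*, which encode its partners, and −0.06 ± 0.40 for *EBS1*, with adjusted p-values of 0.784 to 0.910. These 4 genes were below 0 in replicates 1 and 2 and above 0 in replicate 3. For *UPF3*, however, the arrays of replicate 3 differed in sign, at 0.24 and, on the dye swap, −0.08. *NMD4*, the other gene of this list, went the opposite way, with log2 ratios of 0.12, 0.11 and −0.16. The 95% interval was 0.690-fold to 1.25-fold for *NAM7* and 0.710-fold to 1.30-fold for *EBS1*. Among 7 other mRNAs taken as NMD-sensitive, the median was −0.20, against −0.0047 over all genes, and none was called. By replicate, the median of the 7 was −0.36, −0.61 and 0.15, so replicate 3 was on the other side of 0. The dimmest of the 7 had 0 of 2 spots well above background in wild-type cells on the first array of replicate 3. *ADE2*, whose *ade2-1* allele carries a nonsense mutation in both strains, had log2 ratios of −0.04, −1.005 and −0.34 and a mean of −0.46 ± 0.49 (adjusted p = 0.415; 95% interval 0.511-fold to 1.03-fold). *CPA1*, whose mRNA has an upstream open reading frame that makes it an NMD substrate, was the only one of the 56 genes past 1.5-fold, with log2 ratios of −1.50, −1.41 and −0.41 and a mean of −1.10 ± 0.61. It was lower in the mutant in 3 of 3 replicates but did not pass the adjusted test (adjusted p = 0.196, limma). Cpa1 is a subunit of the arginine-pathway carbamoyl phosphate synthetase.

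**Figure D4:**
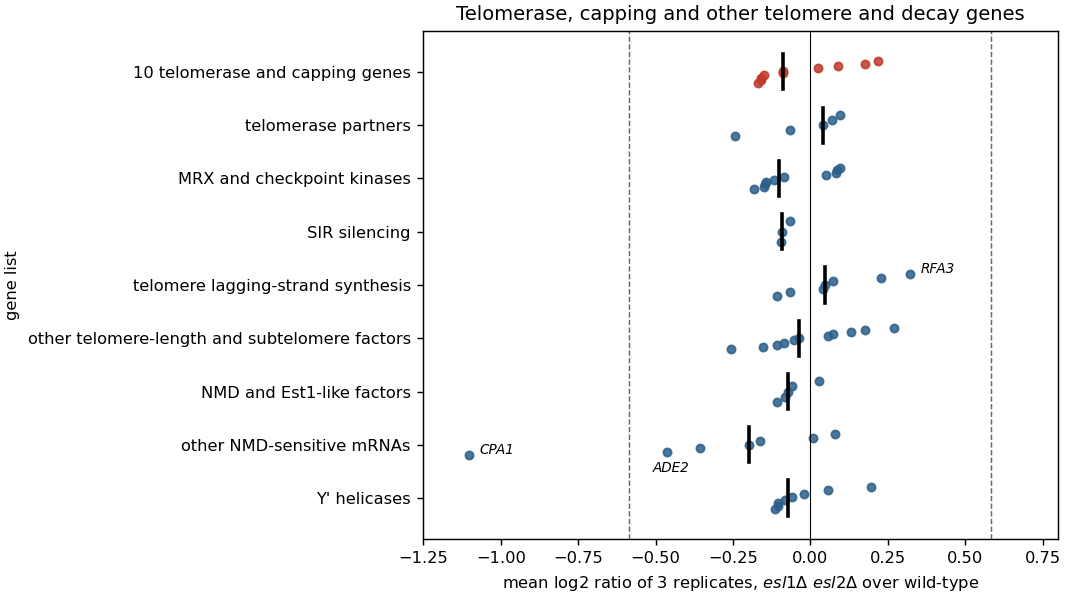
Mean log2 ratio of *esl1Δ esl2Δ* over wild-type for the 10 telomerase and capping genes (red) and for 56 other genes in 8 lists (blue), with the median of each list as a black bar and 1.5-fold as dashed lines. *CPA1* at −1.10 is the only gene outside the dashed lines, and *RFA3* and *ADE2* are named.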

How the data were processed

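From 500 ng of labeled RNA per sample, the authors obtained and deposited raw spot intensities of 4 arrays, as the median signal and the median local background of each dye, with Agilent software (Feature Extraction 10.1.1.1). A log10 ratio of Cy5 over Cy3 made by that software was deposited beside the intensities, and the authors' series table repeats it. Flags for outlier spots and for signal well above background were deposited with them. A normalization or test of the authors for the arrays is not given in the sources used here.

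Here the intensities were background-corrected by normexp (offset 50, fitted on all spots) and normalized by loess within each array with limma 3.58.1 (R 4.3.3; data.table, version 1.17.8). Of 15744 spots per array, 536 control spots and 291 to 486 spots marked as outliers (5 of 96 for the 10 genes, in *EST2*, *STN1* and *RIF2*) were left out, and the spots of a probe were averaged. The dye swap was turned and averaged with the other array of replicate 3, so that n = 3. Ratios were tested against 0 (lmFit and eBayes, two-sided, Benjamini-Hochberg over 6254 genes, 5.27 total degrees of freedom), and the 95% intervals come from the same fit. Each interval is for 1 gene. The scripts were tested on simulated data. Of 6256 probes, 5756 matched locus tags of the RefSeq table (R64). Coordinates are left out, because the arrays were designed on an earlier assembly, and no probe sequences were used. The labels call the replicates biological, and their number limits the precision.

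The genes named are the 10 genes, *ESL1* and *ESL2*, *EST1*, *TLC1*, *EBS1*, *NAM7*, *NMD2*, *UPF3* and *ADE2*, any gene of the lists that was called or past 1.5-fold, and the 3 genes nearest to the one of the 10 with the largest mean. *RFA3* and *NMD4* are outside this rule. The genes and lists were chosen with earlier results of these data known. Alternatives were other background corrections, normalizations, filters, spot summaries, uses of the dye swap, separate channels, each replicate left out and an exact sign-flip test. Mean spot signals were not used here.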

Additional observations from a re-analysis of the deposited data

How the results depend on the processing

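Under 18 alternatives, none of the 10 genes was called by limma, past 1.5-fold or past 2-fold. Of these, 4 (Aquantile, both filters on dim spots or probes, and separate channels) repeat the value of each of the 10 genes, and the series table repeats the software's log ratio. Under the 13 others, 121 of 130 values of single genes kept their sign and 9 turned. The mean log2 ratio of *CDC13* was −0.0096 with a normexp offset of 0 and −0.11 with median centring. With all 4 arrays in 1 fit, which counts the dye swap as a further replicate and gives replicate 3 50% of the weight without a dye term and 66.7% with it, *RAP1* was at 0.0078 without a dye term, and with a dye term *RAP1* was at 0.14, *RIF1* at 0.0266, *RIF2* at 0.0373 and the median of the 10 genes at 0.0320. With each replicate left out in turn, that median lay between −0.10 (without replicate 3) and 0.0271 (without replicate 2), *CDC13* between −0.0615 and 0.0993, *RAP1* between −0.28 and 0.0772, and *RIF2* between −0.20 and 0.0515. The cause of the turns of *CDC13* under other background correction and centring was not tested. Over all genes, 7 were called, against 662 without replicate 3, 90 with 4 arrays and no dye term, 11 with median centring, 4 with the dye swap alone for replicate 3, 2 without replicate 1 or 2, and 1 with the software's log ratio. With separate channels and no replicate block, 5 genes and none of the 10 were called. Unadjusted p-values below 0.05 were found for *TEN1* with 4 arrays and no dye term, where the 4 arrays come from 3 biological replicates, and for *YKU70* and *RIF1* without replicate 3. At these settings, 1.44% and 10.6% of all genes passed the adjusted test, against 0.112% with n = 3. The share of all genes with an unadjusted p below 0.05 was not counted at these settings. Mean spot signals in place of medians were not run. The number of arrays limits what can be seen.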

Other observations

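The sign pattern of *RAP1*, *RIF1* and *RIF2*, below 0 in replicates 1 and 2 and above 0 in replicate 3, was counted in the other lists after it had been seen, and it carries no test. It was found in 26 of 56 listed genes, against 18.9% of all genes. Of the NMD and Est1-like factors, 4 of 5 had it, among them *NAM7* (−0.31, −0.36 and 0.34) and *EBS1* (−0.36, −0.21 and 0.40). *NMD4* had the opposite signs (0.12, 0.11 and −0.16). Of the Y′ helicases, 7 of 8 had the pattern, but near-identical copies are not separate observations, and without this list the count was 19 of 48 genes. In replicate 1, these 7 were close to 0, at −0.10 to −0.02. The other copy was at 0.62 there, with an SD between spots of 0.215. The pattern was found in 2 of 3 SIR silencing genes and in 0 of 7 genes of lagging-strand synthesis. The part of replicate 3, which correlated weakly with the other replicates across genes, was not tested. The opposite pattern was found in 18.0% of all genes and in 2 of the 10 telomerase and capping genes, *YKU70* and *EST3*. For *EST3*, however, replicates 1 and 3 were close to 0, at 0.01 and −0.01, and both arrays of replicate 3 differed in sign.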
